A study of Homo sapiens with 6 samples.

Results

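The proteasome subunit genes and their named partners were followed after short hairpin RNA (shRNA) against SALL4 in SNU-398 cells, a human line grown from a hepatocellular carcinoma. Members were all genes of the array annotation whose symbol is PSM, a letter from A to G and a number, without the interferon-induced catalytic genes PSMB8, PSMB9 and PSMB10. This gave 42 genes of the 18404 with a probe set of their own, a probe set being a group of probes summarised into 1 value. The rule reads names alone, but it was chosen with earlier results of these data known. PSMC5, PSMD7 and PSMD13 were not analysed here. The 6 Affymetrix arrays carried total RNA of 3 samples with a scrambled control shRNA and 3 samples with a SALL4 shRNA, which the labels call biological replicates. Whether they were separate cultures is not stated, and p-values measure only the spread between these samples. All 6 were SNU-398 cells in RPMI medium with serum, and both groups carried an shRNA. The labels name 1 SALL4 shRNA without its sequence, its vector or the time after its introduction, and no rescue, so effects of lower SALL4 and off-target effects of the hairpin cannot be told apart. SALL4 encodes a DNA-binding zinc finger protein known from pluripotent cells and from the liver before birth.

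The proteasome degrades proteins that carry ubiquitin chains. Its barrel-shaped core particle consists of outer rings of alpha subunits (PSMA genes), which gate the entrance, and inner rings of beta subunits (PSMB genes), of which PSMB5, PSMB6 and PSMB7 hold the catalytic sites. The regulatory particle that caps the core has a base with a ring of ATPases (PSMC genes), which unfolds the substrate, and a lid (PSMD genes), which removes ubiquitin. Separate chaperones assemble each particle, and other caps (PSME genes) can take the place of the regulatory particle. In animal cells the transcription factor NFE2L1 raises subunit genes together through antioxidant response elements when proteasomes are inhibited. Rapidly dividing tumour cells, liver cancers among them, are known for high demand on the proteasome.

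No proteasome gene passed the test. Of the 40 members in the fit, 0 rose and 0 fell at a limma adjusted p under 0.05, where 1.60% of all 13711 genes passed (220 genes), 0.547% higher and 1.06% lower. At an unadjusted limma p under 0.05 there were 6 of the 40 (15.0%), against 16.9% of all genes. Of these 2 were higher, against 8.0% of all genes, and 4 lower, against 8.92%. The groups of 3 arrays did not overlap in 8 of the 40 (20.0%), against 22.4% of all genes. Of these 4 were higher, against 11.4% of all genes, and 4 lower, against 11%. Each of these shares lies near its background, so none is a result about the proteasome. The mean difference, as log2 intensity with the SALL4 shRNA minus scrambled, was 0.005 over the 14 core genes and 0.004 over the 14 regulatory particle genes. A difference of 1 on this scale is a doubling. The arrays were too few to show small changes: the 95% interval of the difference stayed within 2-fold either way for 37 of the 40 members and within 1.5-fold for 18.

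SALL4 itself was lower in every sample with its shRNA. It stood at 283, 264 and 335 with the scrambled shRNA and at 121, 119 and 117 with the SALL4 shRNA, in units of deposited intensity, a linear brightness with a lowest value of 10. The groups did not overlap, and SALL4 fell by 1.30 on the log2 scale (SE 0.18), with a limma adjusted p of 0.0112; it was 0.0946 when dim genes were kept in the fit and 0.0724 without scrambled replicate 3 and SALL4 shRNA replicate 2 together. The array medians lay between 47.85 and 51.69. On the second principal component, 19.8% of the variance, scrambled replicate 3 (-19.3) and SALL4 shRNA replicate 2 (-23.4) stood apart from the other arrays (1.8 to 16.9). Of 10 measured liver genes 7 were in the fit and 0 passed, with sums over the list of 1332 to 1650 with the scrambled and 1290 to 1557 with the SALL4 shRNA. The differences largest in size were those of KRT8, an epithelial keratin (log2 0.64), and of APOA2, an apolipoprotein (0.27). KRT8 was at 36.7 ± 12.2 and 56.3 ± 18.1 without overlap (limma adjusted p 0.292). It was the only one of the 7 at an unadjusted limma p under 0.05 (14.3%, against 16.9% of all genes). APOA2 entered the fit only through the SALL4 shRNA group. Of the 7, only these 2 had a positive difference and 5 had a negative one, with a median of -0.07. Of other liver products, named for their role after the values were seen, ALB (11.2 and 12.1 on average) and AFP (15.0 and 13.5) were close to the lowest value in both groups, while the oncofetal proteoglycan gene GPC3 averaged 155 with the scrambled and 144 with the SALL4 shRNA. Of 10 blood cell markers 8 were too dim for the fit and PTPRC and LYZ were at the lowest value on all 6 arrays; summed intensities of the list were 328 to 344 with the scrambled shRNA and 344 to 452 with the SALL4 shRNA. The sums were 168 to 222 and 197 to 234 for 8 endothelial markers, 1945 to 1971 and 1504 to 2097 for 8 fibroblast markers and 303 to 341 and 293 to 346 for 6 cholangiocyte markers. In the fit, the largest differences in size were those of CD68 (0.40) and NKG7 (0.35) among blood cell markers and ROBO4 (0.24) as the only endothelial one. Among the 4 cholangiocyte markers in the fit they were SPP1 (-0.65) and KRT7 (-0.37), while the other 2 had a positive difference. SPP1 was at 49.8, 94.0 and 37.4 and at 34.9, 33.2 and 39.4, with overlapping groups and scrambled replicate 2 above all other arrays. Of the 8 fibroblast markers 4 had a positive and 4 a negative difference, with a median of 0.10. Among the markers of all these lists, only DCN of the fibroblast list, a matrix proteoglycan, passed (log2 difference -1.25, SE 0.22, limma adjusted p 0.0218). It did not pass without scrambled replicate 1, 2 or 3, or without SALL4 shRNA replicate 1 or 2 (limma adjusted p from 0.0516 to 0.0784). Nor did it pass without scrambled replicate 3 and SALL4 shRNA replicate 2 together (limma adjusted p 0.0987). The part of these markers in the proteasome values was not tested. In RNA from whole cultures, fewer cells of a kind and less RNA per cell cannot be told apart.

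The promoters of the members were searched for 5 short sequence patterns, without a test of enrichment. Of the 42 members, 36 matched RefSeq promoter entries (build GRCh38.p14), in all 43 windows of 250 bases before and 50 after a transcription start. PSMA7, PSMB1, PSMB6, PSMB7, PSMD4 and PSMG3 had no entry. The core of the antioxidant response element, written TGACNNNGC and searched on both strands, was in 13 of the 43 windows (30.2%) and in 13.3% of all 35116 windows (13.8% of those of protein-coding genes). The 13 genes with it were PSMA4 and PSMB3 of the core, PSMC4, PSMD1, PSMD3 and PSMD12 of the regulatory particle, the chaperones PSMD5, PSMD9, PSMG1 and PSMG2, and the activators PSME1, PSME2 and PSME4. A looser form of it, TGANNNNGC, includes every match of the first. This form was in 62.8% of member windows and 41.8% of all (41.9% of protein-coding windows). CCAAT, the box bound by NF-Y, was in 39.5% and 34.6% (34.7% of protein-coding windows). CCGGAAG, a core bound by ETS factors, was in 30.2% and 10.3% (12.8% of protein-coding windows), with 7 of 13 matched regulatory particle genes and 1 of 10 matched core genes. AAGATGGC, a core bound by YY1, was in 11.6% and 2.9% (3.5% of protein-coding windows). For the other patterns the matched core and regulatory particle genes split as follows. TGACNNNGC was in 2 of 10 and 4 of 13, and the looser form in 8 of 10 and 7 of 13. CCAAT was in 7 of 10 and 6 of 13, and AAGATGGC in 2 of 10 and 1 of 13. These splits were not tested. The median GC content was 62.0% in member windows and 62.3% in those of protein-coding genes, but 58.7% in all windows. A match is a description of the sequence and shows no binding.

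Windows around TGACNNNGC are printed for the members that hold it before the start and also had non-overlapping groups or an unadjusted limma p under 0.05, so that their sequence can be read beside their values below. Each runs 5′ to 3′ on the strand of the gene, with the match in capitals; in PSME4 the match lies on the other strand and reads as its reverse complement.
PSMA4: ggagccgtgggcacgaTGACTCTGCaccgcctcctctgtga
PSMD12: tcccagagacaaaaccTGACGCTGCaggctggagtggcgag
PSMD9: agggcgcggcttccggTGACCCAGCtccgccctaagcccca
PSME1: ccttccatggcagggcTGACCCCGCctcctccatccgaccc
PSME4: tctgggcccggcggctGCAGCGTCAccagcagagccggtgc
These windows lie upstream of the genes' starts at chr15:78540644-78540684 (plus strand), chr17:67366718-67366758 (minus), chr12:121888672-121888712 (plus), chr14:24136092-24136132 (plus) and chr2:53971003-53971043 (minus). PSMD9 has another match further upstream that is not printed. Among members with the element and in the fit the median log2 difference was -0.01 (13 genes, from -0.51 to 0.64), and among those without it 0.08 (21 genes, from -0.67 to 0.41). The ranges of both sets overlap over most of their width.

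**Figure D1:**
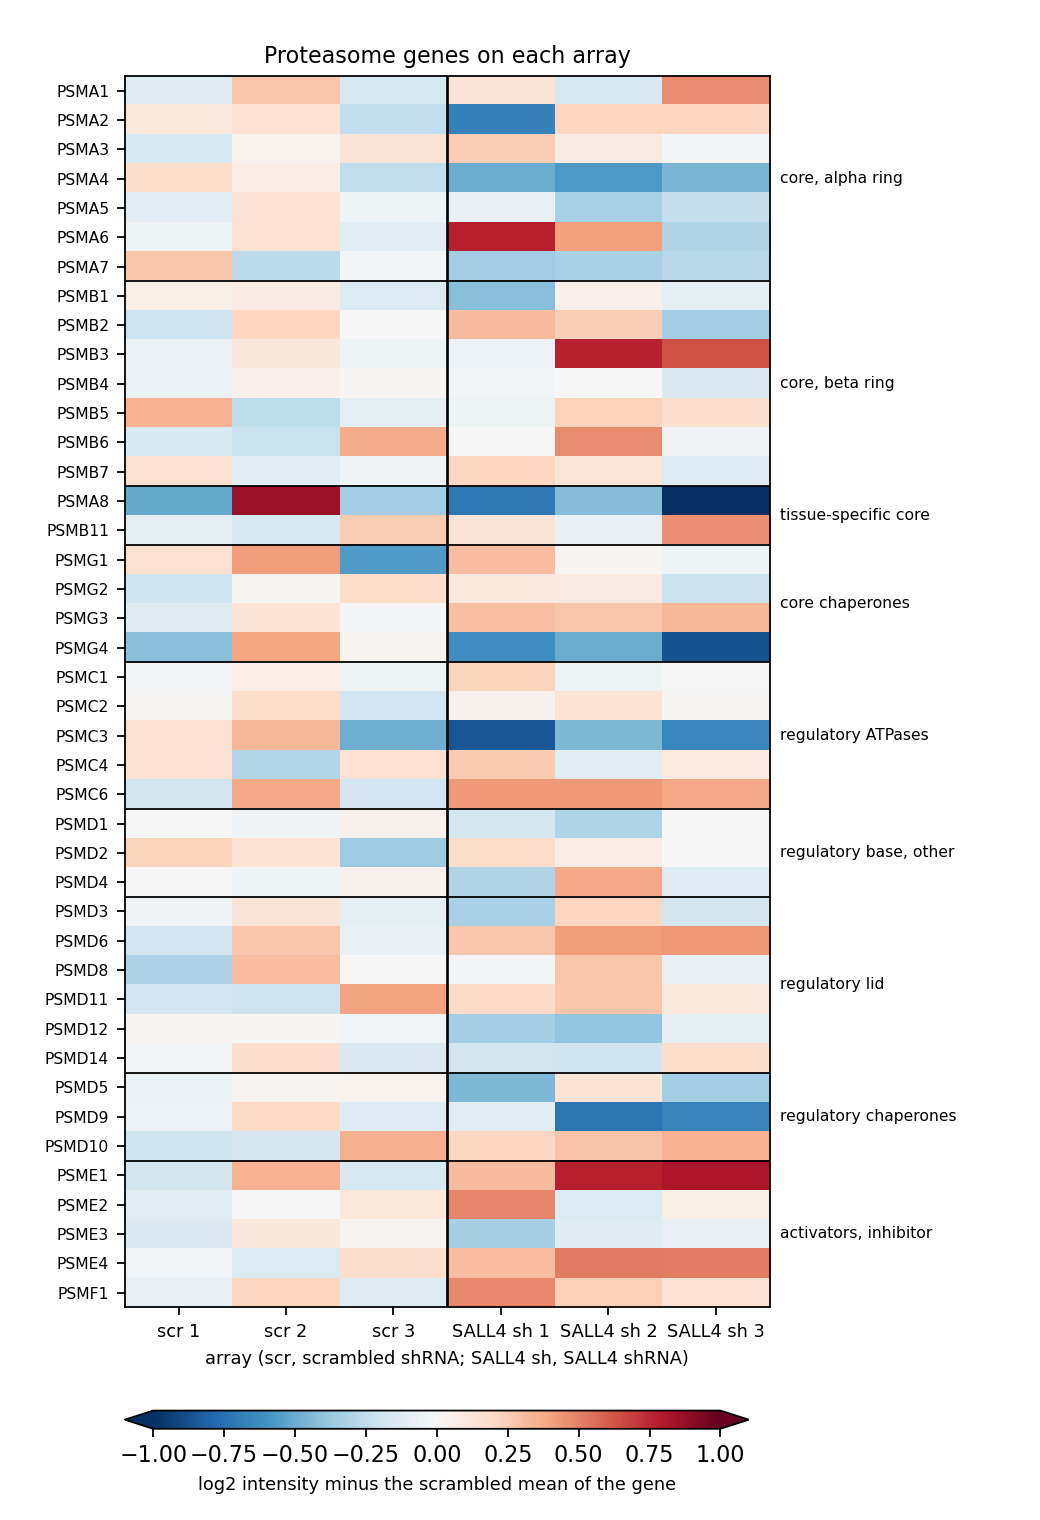
Log2 intensity of each of the 42 members (rows, grouped by role) on each of the 6 arrays (columns), as the difference from the gene's mean over the scrambled arrays; red is higher and blue lower, and colours end at 1 either way. Within most role groups, rows of both colours stand side by side in the SALL4 shRNA columns.

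In the core particle, the alpha and beta rings gave no common direction. Of the 7 alpha genes 3 had a positive and 4 a negative difference, with a median of -0.08. PSMA4, one of the gate-forming alpha subunits, was at 1233, 1150 and 921 with the scrambled shRNA and at 775, 734 and 795 with the SALL4 shRNA. All 3 SALL4 shRNA arrays lay below all scrambled arrays, with a log2 difference of -0.51 (95% interval -0.92 to -0.10) and a limma adjusted p of 0.194. PSMA7, the alpha subunit beside PSMA4 in the ring, was at 879, 606 and 716 and at 570.0, 580.4 and 599. Its groups did not overlap either, but the scrambled arrays were widely spread (log2 difference -0.32, limma adjusted p 0.444). PSMA6 was at 906, 1037 and 871 and at 1599, 1243 and 760.2, so its SALL4 shRNA arrays lay on both sides of the scrambled ones (0.30, interval -0.26 to 0.85). The other alpha genes had overlapping groups. PSMA1 averaged 543 ± 90.5 and 606 ± 131 (SD, n = 3 each here and below) and PSMA2 334 ± 47.3 and 326 ± 102. For PSMA3 the means were 653 ± 66.7 and 703 ± 65.7, and for PSMA5 they were 660.0 ± 61.0 and 570.0 ± 50.

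Of the 7 beta genes 5 had a positive and 2 a negative difference, with a median of 0.08, and the groups overlapped in all 7. The catalytic subunits lay close to 0. PSMB5, which holds the chymotrypsin-like site and is the main target of bortezomib, averaged 789 ± 175 with the scrambled shRNA and 846 ± 84.4 with the SALL4 shRNA, a log2 difference of 0.12 (interval -0.33 to 0.57). PSMB6, with the caspase-like site, was at 570.0, 545 and 823 and at 634, 880.0 and 620.3 (0.15, interval -0.34 to 0.63). PSMB7, with the trypsin-like site, averaged 1339 ± 128 and 1405 ± 169 (0.07, interval -0.34 to 0.48). Over these catalytic genes the bounds of the intervals reached from 0.789 to 1.55 of the control level. PSMB3, a structural beta subunit, was at 337, 383 and 341 and at 339, 603 and 549. SALL4 shRNA replicate 1 stayed among the scrambled arrays while replicates 2 and 3 lay above them (0.45, limma adjusted p 0.348). PSMB1 was at 327, 332 and 286 and at 234, 325 and 293 (-0.16). PSMB2 averaged 1063 ± 153 and 1135 ± 261, and PSMB4 2273 ± 93.8 and 2186 ± 115; the latter had the narrowest interval of the core, -0.44 to 0.32.

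PSMA8, the alpha subunit of testis, and PSMB11, the beta subunit of thymus cortex, were too dim for the fit. PSMA8 was at 15.6, 40.5 and 17.5 and at 13.6, 16.5 and 10.0, and PSMB11 between 10.0 and 15.3 on the 6 arrays. Scrambled replicate 2 alone lifts the PSMA8 average.

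The chaperones that build the core went in different directions. PSMG1 and PSMG2 form the pair that assembles the alpha ring, and PSMG3 and PSMG4 form the other pair. PSMG4 was at 84.3, 148 and 115 and at 73.0, 79.6 and 61.6, with no overlap and the lowest difference of all members in the fit (-0.67, interval -1.16 to -0.17, limma adjusted p 0.16). Its partner PSMG3 was at 179.5, 214 and 193 and at 240.2, 236 and 245, also without overlap but higher (0.30, limma adjusted p 0.423). PSMG1 was at 592, 712 and 362 and at 661, 543 and 519, with scrambled replicate 3 below all other arrays. PSMG2 averaged 318 ± 42.0 and 316 ± 37.9, a log2 difference of -0.01 (interval -0.43 to 0.41).

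In the regulatory particle, 8 of the 14 genes had a positive and 6 a negative difference, with a median of 0.06. Among the 5 ATPase genes the median was 0.06. PSMC3, an ATPase that helps open the core's gate, was at 519, 589 and 333 and at 258, 341 and 297. The groups overlapped through scrambled replicate 3, and the log2 difference was -0.65 (interval -1.16 to -0.14, limma adjusted p 0.182); it was -0.90 without that array, with an adjusted p of 0.0912. PSMC6 was at 665, 986 and 662 and at 1018, 1018 and 988, all 3 SALL4 shRNA arrays being above the scrambled ones (0.41, limma adjusted p 0.333). It is the only member with 2 probe sets, and the dimmer one overlapped between the groups with a log2 difference of 0.17. PSMC4 was at 632, 466 and 635 and at 684, 527 and 612 (0.08). PSMC1 averaged 2120.0 ± 93.4 and 2212 ± 224, and PSMC2 1596 ± 203 and 1661 ± 74.9.

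The base also holds the scaffold subunits PSMD1 and PSMD2 and the ubiquitin receptor PSMD4, and all 3 had overlapping groups. PSMD1 was at 1921, 1878 and 1987 and at 1706, 1564 and 1934 (-0.16, interval -0.55 to 0.23). PSMD2 was at 319, 302 and 214 and at 312, 288 and 275 (0.09). PSMD4 was at 216, 210.3 and 223 and at 175, 281 and 198 (-0.02), its scrambled arrays nearly equal and its SALL4 shRNA arrays on both sides of them.

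Of the 6 lid genes 3 had a positive and 3 a negative difference. PSMD14, the deubiquitinase of the lid, averaged 1346 ± 150.0 and 1287 ± 196, a log2 difference of -0.07 (interval -0.49 to 0.35). PSMD6 was at 398, 548.6 and 431 and at 548.6, 606 and 615. Its groups counted as non-overlapping although the closest pair of arrays was equal to the decimal printed (0.37, limma adjusted p 0.353). PSMD12, whose promoter window is printed above, was at 799, 793.5 and 771.5 and at 621, 600.4 and 741, without overlap (-0.27, limma adjusted p 0.474). PSMD11 was at 745, 736 and 1123 and at 969, 1031 and 915, with scrambled replicate 3 above all other arrays (0.19). PSMD3 averaged 432 ± 34.4 and 409 ± 81.6, and PSMD8 684 ± 147 and 707 ± 96.1.

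The 3 chaperones of the regulatory particle differed from each other in sign. PSMD9 was at 141, 167 and 134 and at 136, 88.2 and 92.1. SALL4 shRNA replicates 2 and 3 lay below the scrambled arrays and replicate 1 among them (-0.51, interval -0.97 to -0.04, limma adjusted p 0.257). PSMD10, or gankyrin, described as an oncoprotein in liver cancer, was at 191, 195 and 282 and at 253, 267 and 279.6 (0.28, interval -0.16 to 0.72). PSMD5 was at 258, 274 and 276 and at 197, 295 and 212 (-0.22).

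**Figure D2:**
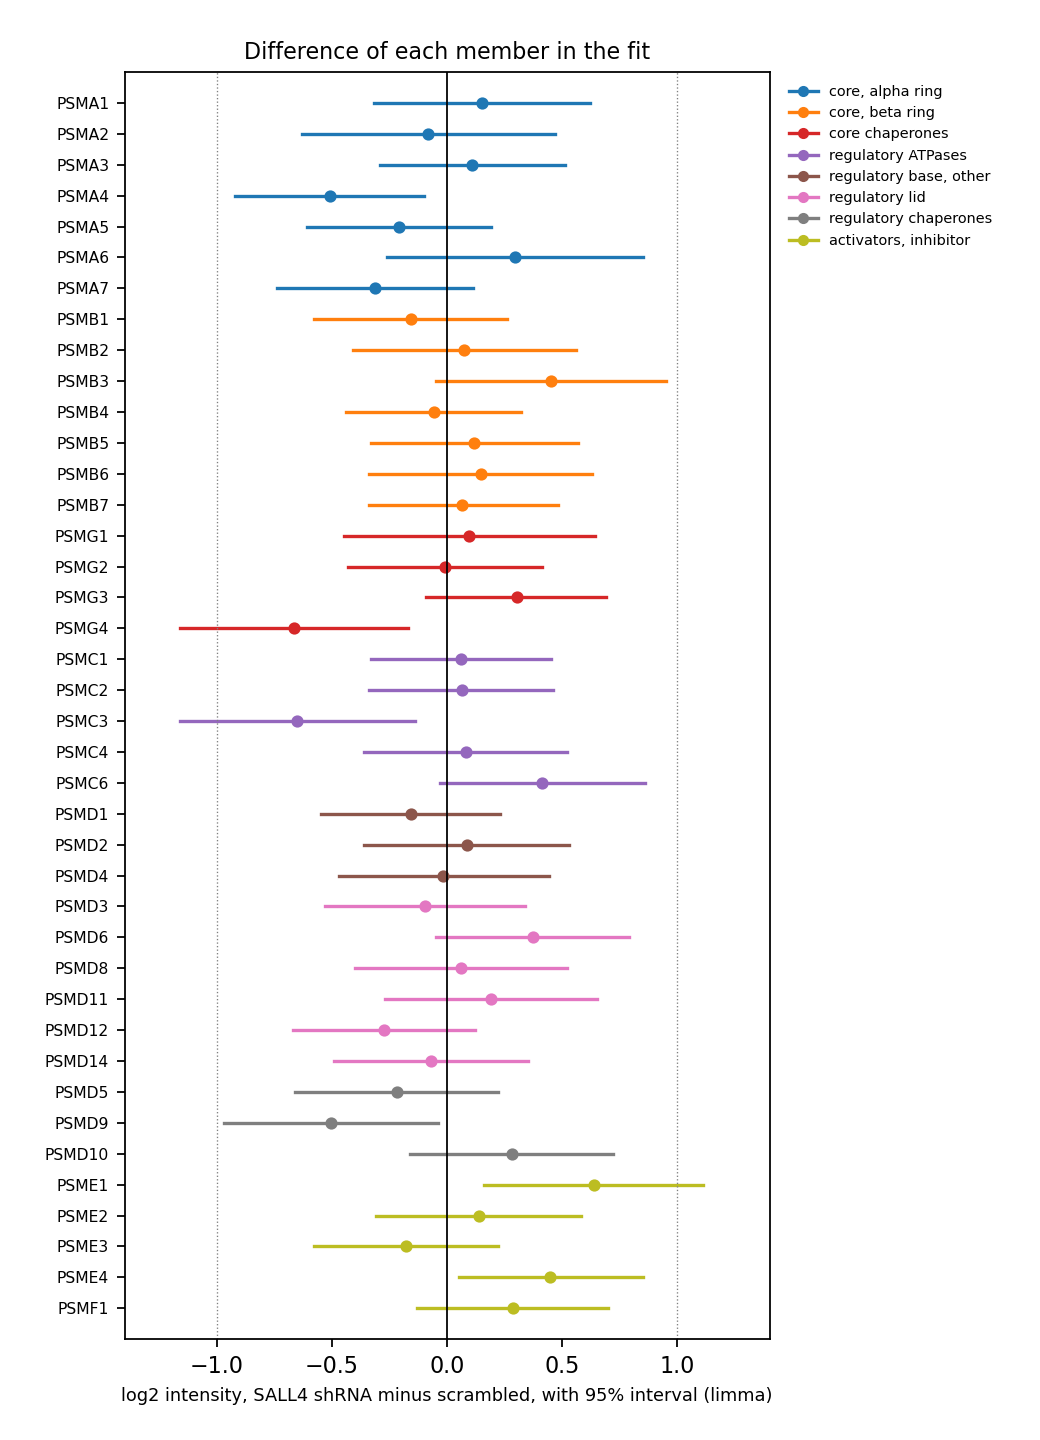
Log2 intensity with the SALL4 shRNA minus scrambled for the 40 members in the fit (points), with the 95% interval from limma (bars, 3 arrays a group), coloured by role; dotted lines mark a doubling and its inverse. For 34 of the 40 members the interval holds 0, and those of PSMC3, PSMG4 and PSME1 pass a dotted line.

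Among the alternative caps and the inhibitor, 4 of 5 genes had a positive difference, with a median of 0.29. At an unadjusted limma p under 0.05 there were 2 of the 5 (40.0%), both higher, against 8.0% of all genes. The groups of 1 (20.0%) did not overlap, higher, against 11.4% of all genes. This role was not tested as a set. PSME1, the alpha subunit of the PA28 activator, was at 181, 260.5 and 183 and at 256, 352 and 359.8. Only scrambled replicate 2 reached the lowest SALL4 shRNA array, and the log2 difference was 0.64 (interval 0.16 to 1.11, limma adjusted p 0.163). PSME2, the beta subunit of the same ring and likewise interferon-inducible, averaged 265 ± 19.4 and 296 ± 67.0, a difference of 0.14. PSME4, or PA200, a nuclear activator, was at 527, 488.5 and 599 and at 666, 770.2 and 764, all SALL4 shRNA arrays being above the scrambled ones (0.45, interval 0.05 to 0.85, limma adjusted p 0.244). PSME3, the nuclear PA28 gamma, averaged 512 ± 45.5 and 452 ± 41.8 (-0.18). PSMF1, known as an inhibitor of the core, was at 499.7, 609 and 485 and at 736, 624 and 584 (0.29).

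Set against each other, core and regulatory particle did not separate. The mean over the 14 core genes, relative to the scrambled mean, was 0.01, 0.03 and -0.04 on the scrambled arrays and -0.03, 0.09 and -0.04 on the SALL4 shRNA arrays. Over the 14 regulatory particle genes it was -0.03, 0.10 and -0.07 and then -0.04, 0.05 and 0.01. The core mean minus the regulatory mean was 0.04, -0.07 and 0.03 on the scrambled arrays and 0.01, 0.04 and -0.04 on the SALL4 shRNA arrays, a difference between the groups of 0.002. Each of these differences was smaller than the spread between arrays of a group, which had an SD of 0.06 (scrambled) and 0.04 (SALL4 shRNA) for core minus regulatory. Within the core the alpha mean was -0.063, -0.094 and -0.085 on the SALL4 shRNA arrays against 0.02, 0.08 and -0.10 on the scrambled arrays, and the groups overlapped. The beta mean was -0.004, 0.271 and 0.008 on the SALL4 shRNA arrays against 0.008, -0.019 and 0.01, with SALL4 shRNA replicate 2 alone above the other arrays. That array is 1 of the 2 set apart on the second principal component. Without it and scrambled replicate 3 the core difference was -0.06 and the regulatory difference -0.05. No test was made of these averages, since the members were chosen with results of these data known.

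**Figure D3:**
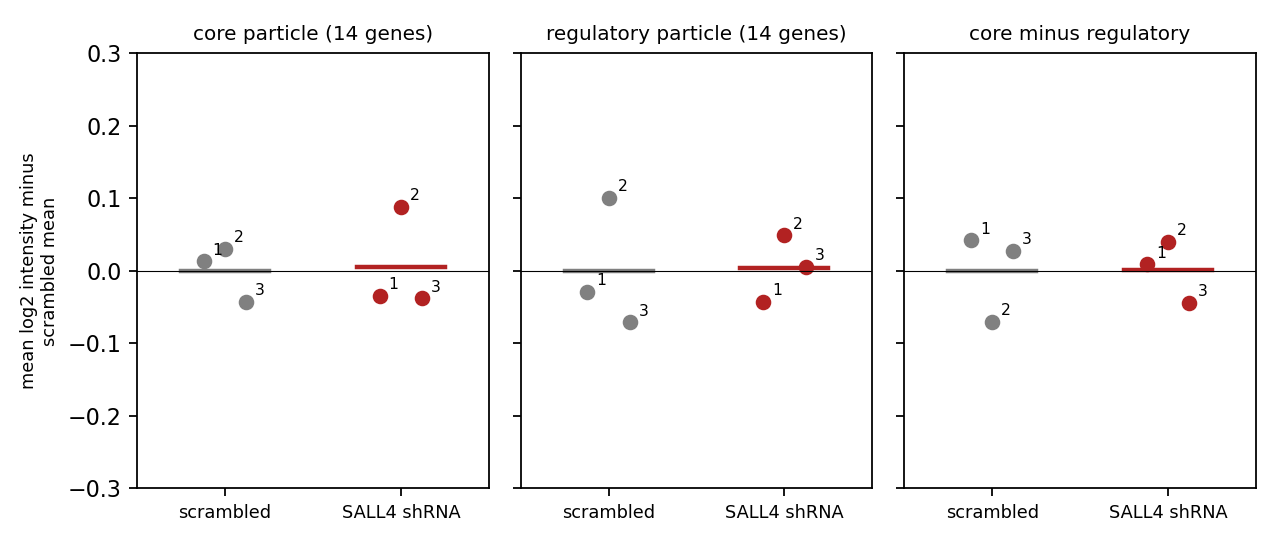
Mean log2 intensity of the core particle genes, the regulatory particle genes and their difference on each array, relative to the scrambled mean; points are arrays with their replicate numbers and bars are group means. The SALL4 shRNA points lie among the scrambled points in the panel of the regulatory particle, and in the panel of the core only replicate 2 (0.09) is above them.

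The members were spread no more widely than other genes. Their median absolute log2 difference was 0.16, against 0.22 over all 13711 genes, and their median difference 0.07 against 0.02. Beyond 1.5-fold lay 3 of the 40 (7.50%), PSME1, PSMC3 and PSMG4, and 10.1% of all genes. The median absolute difference was 0.15 for the core and 0.09 for the regulatory particle. Standard errors of the members ranged from 0.18 to 0.25 with a median of 0.20, close to the median of 0.21 over all genes. limma draws each error toward a value common to all genes (8.01 prior against 4 residual degrees of freedom). Their closeness therefore says little about the members' own spread between arrays. RefSeq names 48 pseudogenes after 20 of the members, 13 of them after PSMC1, 6 after PSME2 and 4 after PSMA6. Such copies can share probe signal, so the values of these genes are less certain.

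**Figure D4:**
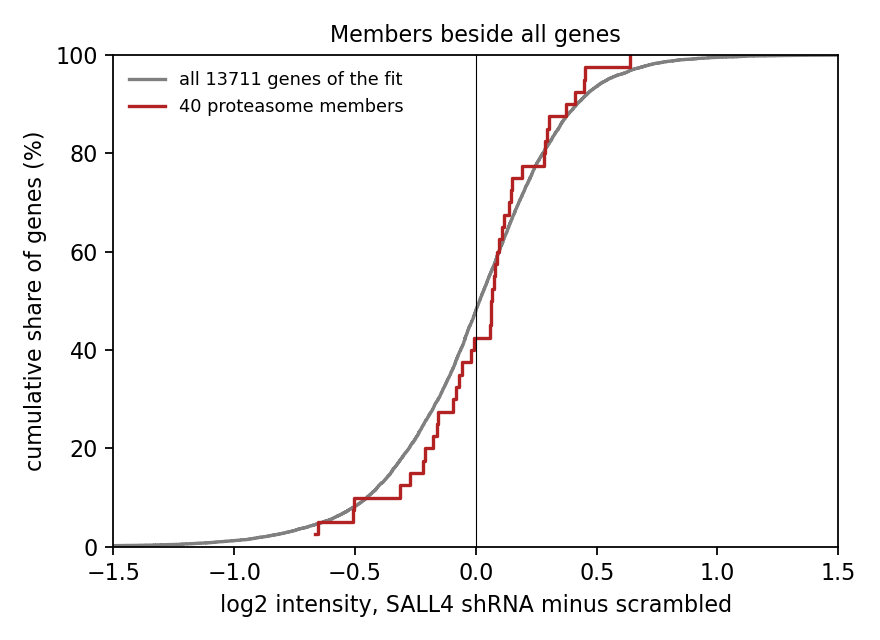
Cumulative share of genes (vertical, in percent) by log2 intensity with the SALL4 shRNA minus scrambled (horizontal) for the 40 members (red) and all 13711 genes of the fit (grey). The members run from -0.67 to 0.64, and their curve stays near that of all genes.

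The interferon-induced catalytic subunits, which replace PSMB5, PSMB6 and PSMB7 in immunoproteasomes, did not pass either. PSMB9 averaged 44.6 ± 3.09 and 49.4 ± 5.38 (log2 difference 0.14, interval -0.26 to 0.54) and PSMB10 110.0 ± 17.9 and 117 ± 29.7 (0.06). PSMB8 was too dim for the fit, at 27.6 ± 13.3 and 30.1 ± 2.10. Of 9 measured antigen presentation genes, into which the immunoproteasome feeds, 8 were in the fit and 1 of them rose, against 0.547% of all genes. This was TAPBP, the peptide-loading chaperone tapasin, with a log2 difference of 1.69 (SE 0.29, limma adjusted p 0.0219). As the mean of its probe sets, in place of the brightest, the difference was 1.08 (limma adjusted p 0.029). It did not pass without scrambled replicate 1 or without SALL4 shRNA replicate 1 or 3 (limma adjusted p from 0.051 to 0.062), nor without scrambled replicate 3 and SALL4 shRNA replicate 2 together (0.0704). All 8 had a positive difference, with a median of 0.58 beside 0.02 over all genes. At an unadjusted limma p under 0.05 there were 5 of the 8, all higher, against 8.0% of all genes, and the groups of 4 did not overlap, all higher, against 11.4%. IRF1, counted in both, entered the fit only through the SALL4 shRNA group; without it the counts were 4 and 3 of 7, with a median of 0.56.

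Proteins that work beside the proteasome include ubiquitin receptors, shuttle factors that deliver substrates, and deubiquitinases. Of 13 measured genes of this kind 0 passed, with 4 (30.8%) at an unadjusted limma p under 0.05, all of them higher, against 8.0% of all genes. The groups of 5 (38.5%) did not overlap, all higher, against 11.4% of all genes. Of the 13, 10 had a positive and 3 a negative difference, with a median of 0.24 beside 0.02 over all genes. UBE3C, a ubiquitin ligase bound to the proteasome, was at 182 ± 16.6 and 297 ± 54.3 without overlap (0.69, interval 0.26 to 1.13). Its limma adjusted p was 0.1, and 0.0423 in a fit of brighter genes only. ZFAND5, a zinc finger activator of the regulatory particle, was at 393 ± 61.3 and 600.0 ± 109 without overlap (0.61, limma adjusted p 0.168). ADRM1 and SEM1, regulatory particle subunits whose symbols fall outside the naming pattern, were looked up for that role: ADRM1 differed by 0.05 (interval -0.36 to 0.45) and SEM1 by 0.24 (interval -0.21 to 0.69).

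Of the other assembly factors, POMP, the chaperone needed for joining half-cores, was at 1348 ± 71.9 and 987 ± 69.2. Its groups did not overlap, with a log2 difference of -0.45 (interval -0.84 to -0.06) and a limma adjusted p of 0.223. PAAF1, a chaperone of the ATPase ring, was at 0.18. In the list of 9 measured genes for transcription of subunits 0 passed, and 0 had an unadjusted limma p under 0.05, against 16.9% of all genes. Of the 9, 7 had a positive and 2 a negative difference. The groups did not overlap in those 2 (22.2%, against 22.4% of all genes), which were NFE2L2 and NFYA. NFE2L2 was at 738 ± 42.7 and 573 ± 60.1 (-0.37, limma adjusted p 0.33) and NFYA, a subunit of NF-Y, at -0.25 (limma adjusted p 0.522). With the brightest probe set for each gene, the differences largest in size were those of MAFG, a partner of NFE2L1 (0.46, interval -0.17 to 1.08), and of NFE2L3, its relative (0.40, interval -0.23 to 1.02). MAFG was at 0.09 as the mean of its probe sets and at 0.14 without SALL4 shRNA replicate 3. NFE2L3 was at 0.18 without SALL4 shRNA replicate 1. NFE2L1 itself, given for its role, was at 257 ± 20.8 and 283 ± 17.4 (0.14, interval -0.25 to 0.53).

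Upstream of the proteasome, 0 of 3 measured ubiquitin and ubiquitin-activating enzyme genes passed. UBB, a polyubiquitin gene, was at 1927 ± 99.9 and 2673 ± 256 without overlap (0.47, interval 0.08 to 0.86, limma adjusted p 0.211), and UBA6, an activating enzyme, at -0.23. Of 9 genes of the p97 unfoldase, which extracts ubiquitylated proteins for degradation, 0 passed and 2 (22.2%) had an unadjusted limma p under 0.05, near the 16.9% of all genes. NSFL1C, the cofactor p47, was at -0.44 (interval -0.85 to -0.03) and UFD1, a cofactor in extraction from the endoplasmic reticulum, at 0.44 (interval 0.00 to 0.88).

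**Figure D5:**
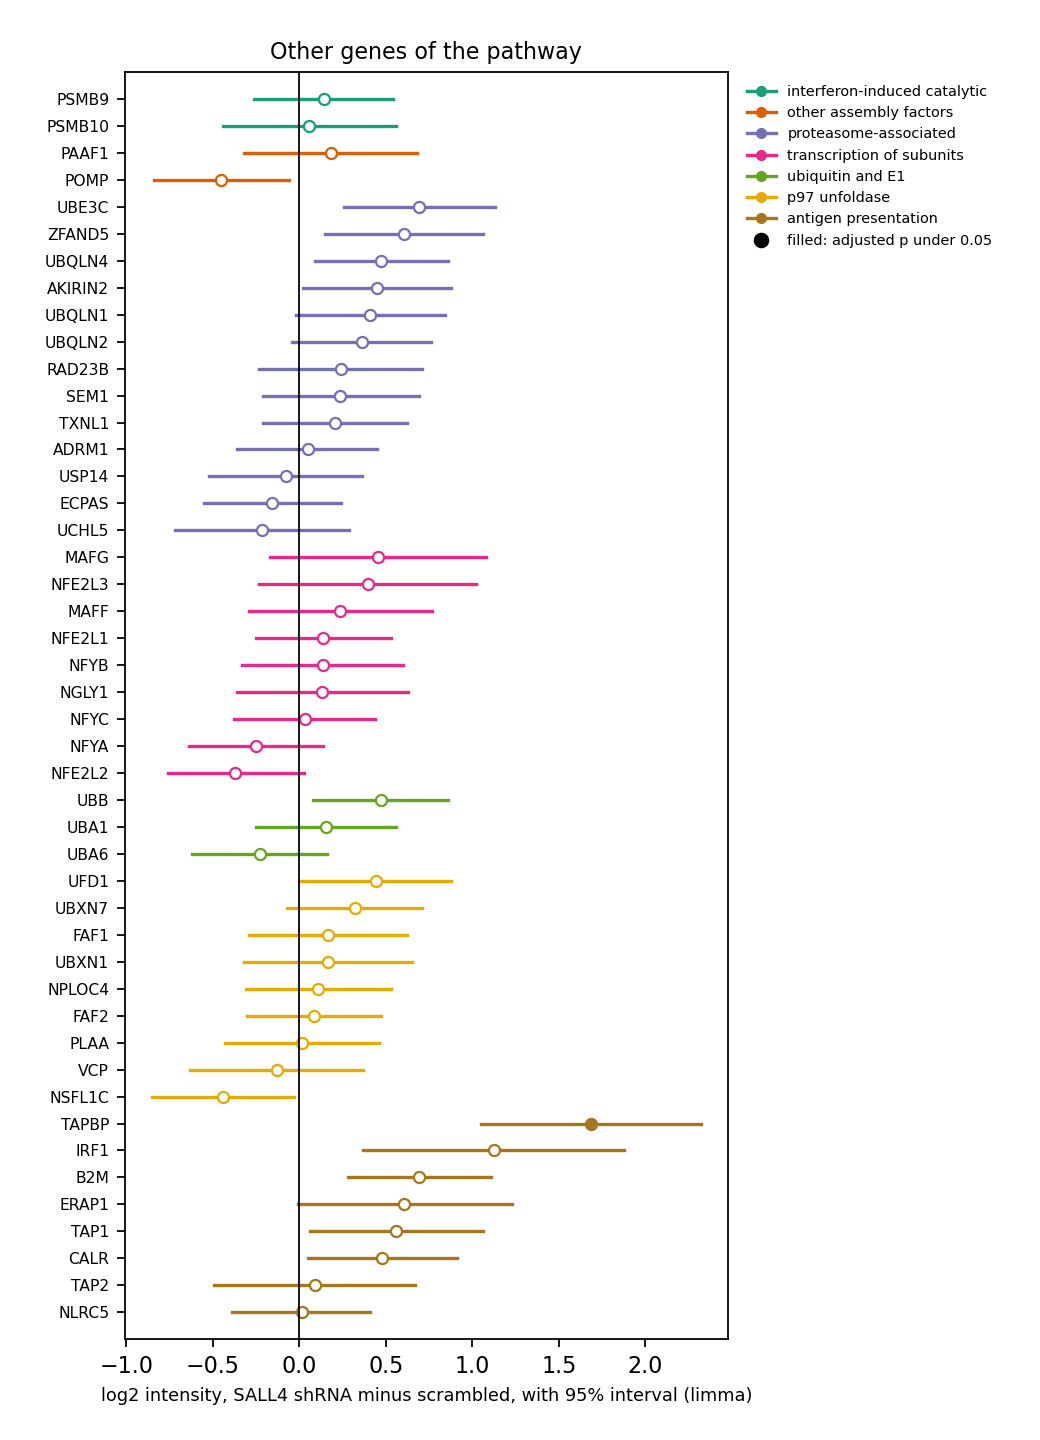
Log2 intensity with the SALL4 shRNA minus scrambled for other genes of the pathway in the fit (points) with 95% intervals from limma (bars, 3 arrays a group), coloured by list; filled points passed at an adjusted p under 0.05. TAPBP is the only filled point, and POMP and NSFL1C are those whose whole interval is negative.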

How the data were processed

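The 6 columns of the deposited table hold intensity values of 32319 probe sets. RMA (background correction, normalization and probe summary) is named in the submitters' processing notes, with no version; what followed is not stated there. RMA ends on a log2 scale, but the deposited intensities are linear with a floor at 10, where 15.5% to 16.9% of the values of each array lie, so changes of dim genes are understated. Log2 was taken here. Names came from GEO's platform annotation (19158 probe sets with 1 symbol), symbols updated by Entrez identifier, and the brightest probe set by mean over the 6 arrays stood for a gene.

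Differences were tested two-sided with limma 3.58.1 (lmFit, eBayes; R 4.3.3), Benjamini-Hochberg adjusted at a threshold of 0.05, over the 13711 genes whose mean log2 intensity reached 5 in at least 1 group; 2 members were below. Intervals use its standard errors with 12.01 degrees of freedom. Without the filter, 0 of 18404 genes passed (2864 at an unadjusted p under 0.05). The script was tested on simulated data. Members, lists and filter were chosen with earlier results of these data known, the promoter patterns after the values were seen. Every member is named, with array values where the groups did not overlap, the unadjusted p was under 0.05 or the difference was among the 3 largest of its role. From other lists, genes that passed or else up to 2 of those in the fit with the largest difference are named. Others were added after the values were seen, for their role, filter status or non-overlapping groups. These were ALB, AFP, GPC3, PTPRC, LYZ, PSMB8, IRF1, ADRM1, SEM1, NFE2L1, NFE2L2 and NFYA.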

Additional observations from a re-analysis of the deposited data

How the results depend on the processing

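No member passed in any of the 15 alternative fits; the lowest adjusted p was 0.0803 (PSME1, among genes whose mean log2 intensity reached 7), so the count stayed at 0. The count over all genes, 220 in the fit reported, was 0 without a filter, 531 among the brighter genes, 500 with limma's trend and robust settings, and 39 to 103 without 1 array (39, 46 and 79 without scrambled replicate 1, 2 or 3; 103, 61 and 103 without SALL4 shRNA replicate 1, 2 or 3). Without scrambled replicate 3 and SALL4 shRNA replicate 2 together it was 15; fewer arrays leave fewer degrees of freedom. With replicate number as a block it was 41, and 0 members passed. Same-numbered arrays did not deviate together (correlations 0.003, -0.083 and -0.039), so the numbers were not taken as pairs.

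The core particle change, 0.005 as a mean, was 0.071 as a median over genes and -0.057 without those 2 arrays together; the cause was not tested. Without 1 array it ranged from -0.036 to 0.027, the regulatory particle change from -0.032 to 0.054 and the core minus regulatory change from -0.034 to 0.024. Under the other alternatives these moved by less than the spread between arrays.

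For 23 members the sign held in all alternatives, but the size of 12 of these moved by over 1.5 times without 1 array: PSMA3 ranged from 0.026 to 0.173, PSMA5 from -0.278 to -0.138, PSMA6 from 0.056 to 0.592, PSMA7 from -0.444 to -0.176, PSMB1 from -0.262 to -0.025, PSMB3 from 0.29 to 0.705, PSMB4 from -0.09 to -0.013, PSMD1 from -0.239 to -0.086, PSMD5 from -0.396 to -0.105, PSMD10 from 0.181 to 0.462, PSMD11 from 0.086 to 0.391 and PSME3 from -0.25 to -0.101. The other 17 had differences of at most 0.149 either way, and their sign changed without 1 array: PSMA1 ranged from -0.011 to 0.299, PSMA2 from -0.231 to 0.214, PSMB2 from -0.046 to 0.282, PSMB5 from -0.008 to 0.29, PSMB6 from -0.017 to 0.333, PSMB7 from -0.005 to 0.167, PSMC1 from -0.023 to 0.111, PSMC2 from -0.032 to 0.153, PSMC4 from -0.068 to 0.179, PSMD2 from -0.093 to 0.196, PSMD3 from -0.252 to 0.017, PSMD4 from -0.217 to 0.123, PSMD8 from -0.094 to 0.217, PSMD14 from -0.192 to 0.014, PSME2 from -0.038 to 0.272, PSMG1 from -0.185 to 0.303 and PSMG2 from -0.109 to 0.095. So did ADRM1 (-0.065 to 0.131), PSMB10 (-0.107 to 0.273) and GPC3 (-0.212 to 0.022). Without the 2 arrays together the values were -0.012 for PSMB2, -0.068 for PSMC2, -0.085 for PSMD2, -0.047 for PSMD8, -0.149 for PSMG1, 0.035 for PSMG2, -0.107 for PSMB10, -0.112 for ADRM1, -0.045 for APOA2, 0.073 for GPC3 and -0.043 for ROBO4. With quantile normalization PSMC1 was -0.081 and PSMC2 -0.012; with median centring PSMD4 was 0.001 and PSMG2 0.011. TAPBP and DCN did not pass without a filter (adjusted p 0.152 and 0.118) or with the block (0.0594 and 0.0562).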
